A study of Homo sapiens with 6 samples.

Results

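The genes described here are 47 of the 53715 in the count table, listed by symbol because they are among the longest human genes or lie at common fragile sites. The listed genes, called members below, spanned 631 kb (FOXP1) to 2474 kb (RBFOX1) in GENCODE v29 on GRCh38, with a median of 1214 kb, and 36 of them spanned at least 1000 kb. The median span of the tested genes of the series was 29.6 kb. Of the members, 19 are described at common fragile sites. Not all members fell with the L1 antisense oligo. Of 40 with enough counts in every group, 18 fell against the L1 sense oligo, 3 rose and 19 did not pass the test. Of all tested genes 12.7% were called lower and 10.3% higher. Among all 43 members that could be tested, 19 fell, 3 rose and 21 did not pass. The 19 include GPC5, which could be tested only through its level with the sense oligo.

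RNA was measured by sequencing in H9 cells, an established human embryonic stem cell line grown in the primed state. The cells were transfected with 25 nM of 1 of 3 fluorescein-tagged oligos and sorted for the tag 48 hours later. ASO-L1 is an antisense oligo against LINE1 (L1), a transposable element with very many copies in the genome, sO-L1 is a sense oligo of L1, and ASO-Ctr is an antisense oligo with no specific target. To help the cells survive, all 3 groups were also given trans-ISRIB (0.7 uM), which blocks the integrated stress response, emricasan (5 uM), which blocks caspases, and a ROCK inhibitor (10 uM), all taken off after 24 hours. Each group had 2 libraries, and the labels do not say that they came from separate cultures, so p-values measure only the spread among these libraries, which may be technical. In the main test it is the spread left after the difference between replicate numbers is removed, and it is estimated largely across genes. For the medium after transfection the labels name mTeSR as well as RSeT, and which was used is unclear. The level of the L1 target was not analysed here, so the knockdown itself is not shown by these values.

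A very long gene takes RNA polymerase II many hours to transcribe, and most of its length is intron. Common fragile sites are chromosome regions that break under replication stress, and many of them lie within such genes. Many of the members act at synapses or in neuronal adhesion, and embryonic stem cells transcribe a number of them at low levels.

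Library totals ranged from 18897936 to 67192937 counts, with ASO-Ctr replicate 1 the shallowest. Summed levels of 11 primed pluripotency markers were 9550 and 9470 CPM (a gene's counts scaled by its library's total) in ASO-L1, 9530 and 9370 CPM in sO-L1 and 9790 and 9340 CPM in ASO-Ctr. Summed levels of 13 neural markers were 664 and 668 CPM in ASO-L1, 633 and 631 CPM in sO-L1 and 616 and 617 CPM in ASO-Ctr. NEUROG2 was at 0 in 1 sO-L1 and 1 ASO-Ctr library, and no neural marker was at 0 in all 6. Summed endoderm markers were 4.95 and 3.9 CPM in ASO-L1, 7.62 and 5.89 CPM in sO-L1 and 6.14 and 5.52 CPM in ASO-Ctr. FOXA2, an endoderm transcription factor, had 1.93 and 1.61 CPM in ASO-L1, against 3.75 and 3.89 CPM in sO-L1 and 3.65 and 3.23 CPM in ASO-Ctr, and was called lower in both ASO-L1 comparisons with the block and without it. The summed neural markers thus stood highest and the summed endoderm markers lowest in both ASO-L1 libraries. Single neural markers went both ways: of 11 tested, 1 was lower and 3 higher against sO-L1, and 2 and 3 against ASO-Ctr. Over all tested genes 12.7% were lower and 10.3% higher, and 11.6% and 9.88%. No neural marker was called without the block. FOXA2 was the only one called of 3 tested endoderm markers. The part of these markers in the members' results was not tested. In bulk samples such as these, fewer cells of a type and less RNA per cell cannot be told apart. Mesoderm markers summed to 2.12 to 3.23 CPM over all libraries with HAND1 at 0, and trophoblast and amnion markers to 12.7 to 14.4 CPM. Neural crest markers (5 genes) summed to 46.9 and 47.5 CPM in ASO-L1, 43.6 and 45.6 CPM in sO-L1 and 41.1 and 47.5 CPM in ASO-Ctr. Of 3 tested, 1 was lower and 1 higher against sO-L1, and 0 and 1 against ASO-Ctr. Without the block 0 were lower and 1 higher against sO-L1, and 0 were called against ASO-Ctr.

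Promoter sequences are shown for 3 members with large falls and for CNTNAP2, the member that rose in both ASO-L1 comparisons, so that the starts of genes that moved in opposite directions can be read side by side. They were chosen after their values were seen, and each has a single start in the RefSeq table (GRCh38.p14). Each sequence runs 5′ to 3′ from 250 bases before the start to 50 bases after it, with CG dinucleotides in capitals.
IMMP2L (chr7:111562443-111562742, minus strand): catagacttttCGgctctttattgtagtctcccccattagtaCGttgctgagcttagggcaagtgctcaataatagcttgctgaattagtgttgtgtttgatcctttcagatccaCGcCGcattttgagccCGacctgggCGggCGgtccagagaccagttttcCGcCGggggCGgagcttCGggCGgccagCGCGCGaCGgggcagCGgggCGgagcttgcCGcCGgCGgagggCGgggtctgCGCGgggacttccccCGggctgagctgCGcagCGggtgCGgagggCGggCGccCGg
FAM155A (chr13:107867447-107867746, minus strand): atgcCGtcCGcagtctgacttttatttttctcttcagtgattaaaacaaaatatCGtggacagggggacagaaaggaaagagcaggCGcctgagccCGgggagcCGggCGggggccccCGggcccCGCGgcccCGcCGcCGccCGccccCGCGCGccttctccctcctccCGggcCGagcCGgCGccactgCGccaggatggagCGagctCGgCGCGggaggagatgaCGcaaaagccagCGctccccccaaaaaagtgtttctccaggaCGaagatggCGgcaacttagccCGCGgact
THSD7B (chr2:136765295-136765594, plus strand): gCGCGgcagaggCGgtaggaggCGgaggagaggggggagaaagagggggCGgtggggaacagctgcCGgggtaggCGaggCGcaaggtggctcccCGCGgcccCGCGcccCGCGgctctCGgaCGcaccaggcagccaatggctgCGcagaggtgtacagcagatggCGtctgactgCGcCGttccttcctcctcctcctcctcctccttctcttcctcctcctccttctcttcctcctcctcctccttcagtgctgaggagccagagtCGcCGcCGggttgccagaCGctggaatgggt
CNTNAP2 (chr7:146116551-146116850, plus strand): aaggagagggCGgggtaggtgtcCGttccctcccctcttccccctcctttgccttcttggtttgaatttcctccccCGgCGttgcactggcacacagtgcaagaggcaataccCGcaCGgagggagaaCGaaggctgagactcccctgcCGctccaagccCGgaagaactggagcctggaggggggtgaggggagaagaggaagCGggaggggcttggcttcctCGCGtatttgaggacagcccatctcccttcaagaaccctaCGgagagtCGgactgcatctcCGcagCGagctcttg
The window of FAM155A, listed in RefSeq as NALF1, held 32 CG dinucleotides, that of IMMP2L 31, that of THSD7B 24 and that of CNTNAP2 16. All 4 windows held GGGCGG on either strand, and none held TATAAA on either strand. Over all 35093 promoter windows of the same length, the median was 14 CG dinucleotides, 44.9% held GGGCGG and 11.5% held TATAAA. For 39 members the table held 103 windows, with a median of 13 CG dinucleotides, 42.7% with GGGCGG and 8.74% with TATAAA. Windows of members that fell in an ASO-L1 comparison had a median of 14 CG dinucleotides (56 windows), against 13 for the other tested members (46 windows). By these counts the members' starts were close to those of all genes. Of the 39 members, 23 had at least 2 starts in the table and 1 had 9.

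Every member had counts in at least 1 library. LRP1B, CSMD1, CSMD3 and ERBB4 had too few to test, with 13, 10, 19 and 28 counts summed over the 6 libraries. LRP1B and CSMD1 had 0 counts in sO-L1 replicate 1 and ASO-Ctr replicate 1, where 3 counts, the limit that a count of 0 allows, correspond to 0.0865 and 0.159 CPM. Such limits cover counting error only. These 4 genes code for 3 very large membrane proteins and for the neuregulin receptor ERBB4. No test was made of them. CSMD3 had 7 and 4 counts in ASO-L1, against 1 and 2 counts in sO-L1 and 1 and 4 counts in ASO-Ctr, and its CPM was highest in both ASO-L1 libraries. FHIT, GPC5 and PARK2 entered the tests with 56, 53 and 66 counts but did not reach the count minimum, equal to 0.192 CPM, in every group. The other 40 members reached it in all 3 groups.

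Against sO-L1, the comparison that sets the antisense oligo beside the sense oligo of the same element, 19 of 43 tested members fell in ASO-L1 and 3 rose (edgeR quasi-likelihood test, replicate number as a block, Benjamini-Hochberg adjusted p under 0.05). Over all 19156 tested genes 12.7% were called lower and 10.3% higher. The median log2 fold change of the members was -0.31, a ratio of 0.807, beside 0.00 for all genes, and 35 of 43 values were negative. In replicate 1 the members' median was -0.28 and in replicate 2 it was -0.33, and 27 members were negative in both. Among the 19 lower members, GPC5 reached the count minimum in both libraries only in sO-L1, the group it was called lower against. Of the 40 members that reached the count minimum in every group, 18 were lower and 3 higher. Without the replicate block 6 members were called lower and 1 higher, with 0.924% and 0.914% of all genes called. The labels do not say what the replicate numbers share, so both sets of calls are given.

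Against ASO-Ctr, the antisense oligo with no specific target, 22 members fell in ASO-L1 and 1 rose, with 11.6% of all tested genes called lower and 9.88% higher. The members' median log2 fold change was -0.46, and 39 of 43 values were negative. Without the replicate block 8 members were called lower and 1 higher, with 1.05% and 0.903% of all genes called. The ASO-L1 libraries serve in both comparisons, which are therefore not independent. Across them, 17 members fell in both, WWOX and GPC5 were called lower only against sO-L1, and CTNNA3, NRXN3, LSAMP, DPP6 and DPP10 only against ASO-Ctr. In neither comparison were 16 of the tested members called.

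**Figure D1:**
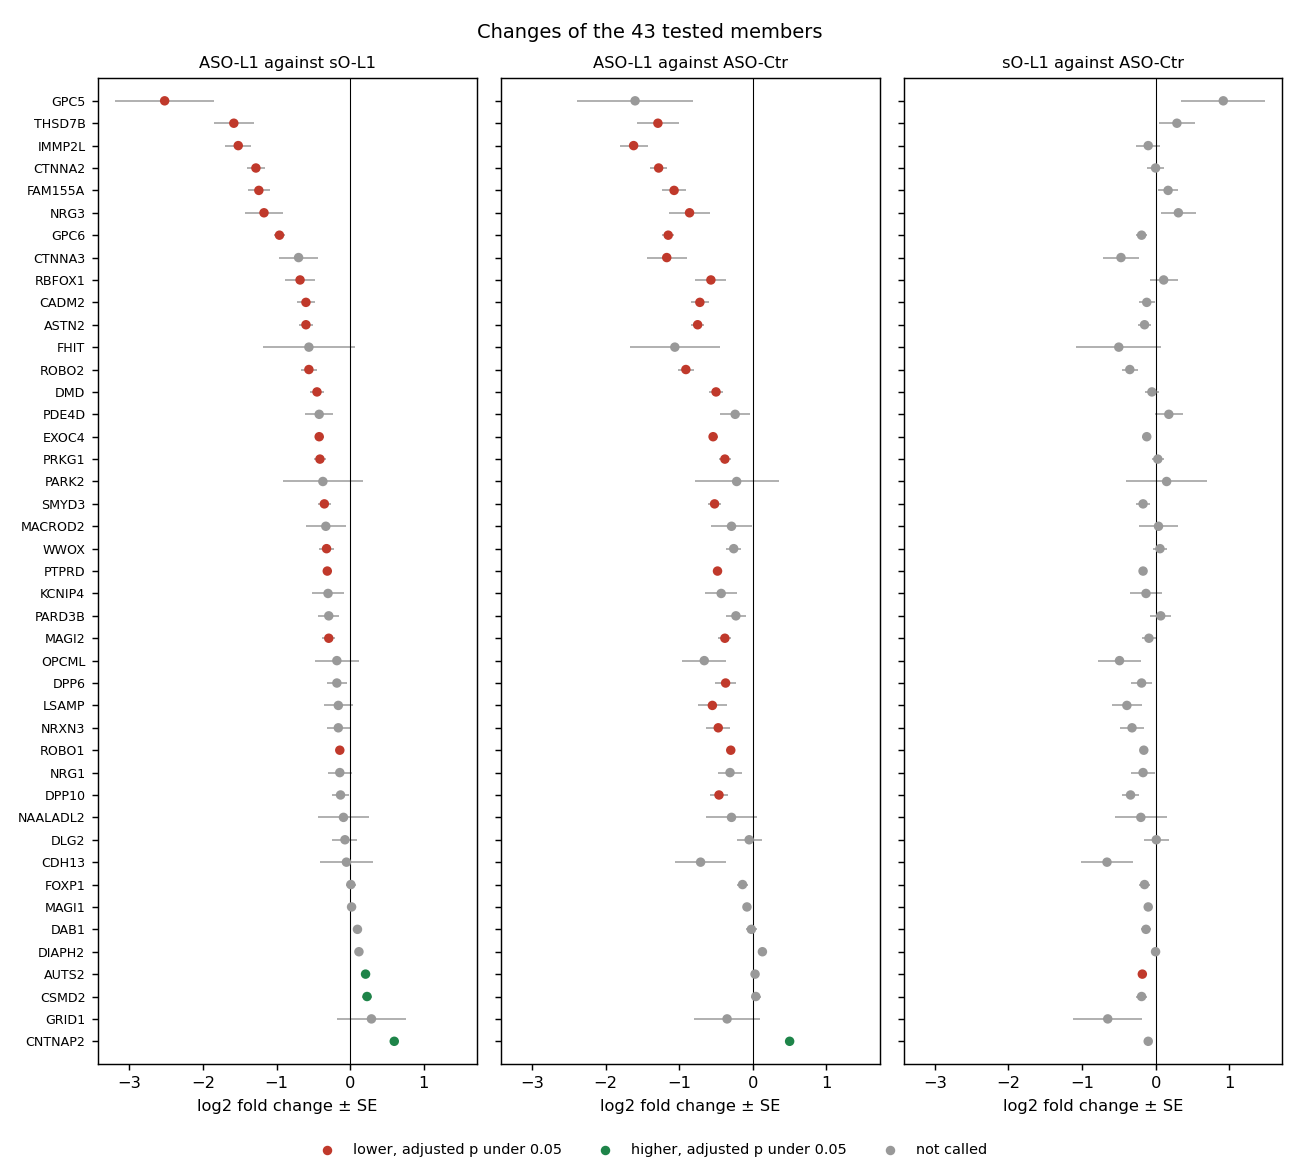
Log2 fold change with its SE for each of the 43 tested members (rows) in the 3 comparisons, with both ASO-L1 comparisons on the left, coloured by call in edgeR with the replicate block. In the first panel 19 members are lower and 3 higher, in the second 22 and 1, and in the third 1 and 0.

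Adhesion and guidance proteins were the largest group of members. Of 15 tested, 8 fell (GPC5 among them) and 1 rose in ASO-L1 against sO-L1, and 10 fell and 1 rose against ASO-Ctr. The median log2 fold changes were -0.31 and -0.71. Of all tested genes 12.7% were lower and 10.3% higher against sO-L1, and 11.6% and 9.88% against ASO-Ctr. CTNNA2, the neuronal alpha-catenin that ties cadherins to actin, had 3.01 and 3.49 CPM in ASO-L1, against 7.27 and 8.56 CPM in sO-L1 and 8.25 and 8.08 CPM in ASO-Ctr. Both ASO-L1 libraries lay below all 4 others. Separation from 1 other group was common: over all tested genes, 24.1% had both ASO-L1 libraries below both of sO-L1, and 27.6% below both of ASO-Ctr. Among the 43 tested members 22 and 31 did. The log2 fold change of CTNNA2 was -1.28 ± 0.12 (SE) against sO-L1 (edgeR, adjusted p = 6.63e-12, or 0.00628 without the block) and -1.28 ± 0.12 against ASO-Ctr (adjusted p = 1.89e-11, or 0.00563). GPC6, a glypican that carries heparan sulfate at the cell surface, had 9.39 and 10.4 CPM in ASO-L1, against 18.8 and 19.9 CPM in sO-L1 and 23.5 and 21.8 CPM in ASO-Ctr. The groups did not overlap, and sO-L1 stood between the other two. Its log2 fold change was -0.96 ± 0.08 against sO-L1 (edgeR, adjusted p = 5.32e-13, or 0.00572 without the block) and -1.15 ± 0.08 against ASO-Ctr (adjusted p = 2.6e-15, or 0.00218).

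ASTN2, an astrotactin of neuronal migration, had 8.78 and 9.55 CPM in ASO-L1, against 13.2 and 14.7 CPM in sO-L1 and 16 and 15.8 CPM in ASO-Ctr. CADM2, a synaptic adhesion molecule, had 4.22 and 4.11 CPM in ASO-L1, against 6.23 and 6.43 CPM in sO-L1 and 6.83 and 7.05 CPM in ASO-Ctr. In both genes the ASO-L1 libraries were the 2 lowest. ASTN2 fell by 0.60 on the log2 scale against sO-L1 (edgeR, adjusted p = 5.4e-07, or 0.0266 without the block) and by 0.75 against ASO-Ctr (adjusted p = 4.13e-09, or 0.0133). CADM2 fell by 0.60 against sO-L1 (edgeR, adjusted p = 1.03e-04) and by 0.72 against ASO-Ctr (8.55e-06). Without the block CADM2 passed against ASO-Ctr (0.032) and not against sO-L1 (0.0557).

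ROBO1 and ROBO2 are receptors for Slit guidance proteins. ROBO2 had 4.28 and 5.53 CPM in ASO-L1, against 6.66 and 7.89 CPM in sO-L1 and 9.47 and 9.63 CPM in ASO-Ctr, and ROBO1 had 110 and 129 CPM in ASO-L1, against 123 and 141 CPM in sO-L1 and 148 and 150 CPM in ASO-Ctr. ROBO2 separated the 3 groups, while in ROBO1 ASO-L1 overlapped sO-L1. The log2 fold changes of ROBO2 were -0.56 ± 0.11 and -0.91 ± 0.11 against sO-L1 and ASO-Ctr, and those of ROBO1 were -0.14 ± 0.05 and -0.30 ± 0.05. Without the block ROBO2 was called only against ASO-Ctr and ROBO1 in neither comparison. ROBO1's call against sO-L1 was also lost without ASO-L1 replicate 1, where its log2 fold change was -0.07, and without either sO-L1 library (-0.16 and -0.11). PTPRD, a receptor tyrosine phosphatase that acts in synaptic adhesion, had 47.0 and 56.6 CPM in ASO-L1, against 57.1 and 71.9 CPM in sO-L1 and 71.5 and 76.4 CPM in ASO-Ctr. Its highest ASO-L1 library lay just under its lowest sO-L1 library, and its log2 fold changes were -0.31 ± 0.05 and -0.48 ± 0.06, called only with the block.

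CTNNA3, an alpha-catenin best known from heart and testis, had 0.541 and 0.743 CPM in ASO-L1, against 0.837 and 1.23 CPM in sO-L1 and 1.69 and 1.44 CPM in ASO-Ctr. NRXN3, a presynaptic neurexin, had 2.53 and 2.21 CPM in ASO-L1, against 2.88 and 2.44 CPM in sO-L1 and 3.33 and 3.23 CPM in ASO-Ctr. LSAMP, a surface protein of the IgLON family, had 1.49 and 1.5 CPM in ASO-L1, against 1.38 and 1.92 CPM in sO-L1 and 2.12 and 2.37 CPM in ASO-Ctr. All 3 genes were called against ASO-Ctr alone, with log2 fold changes of -1.17, -0.47 and -0.55, and none of them without the block. The call of NRXN3 was lost when any 1 of the 6 libraries was left out, and that of LSAMP without any 1 of the ASO-L1 and ASO-Ctr libraries. CTNNA3 was called against sO-L1 as well without either ASO-Ctr library (log2 fold change -0.68). For LSAMP the log2 fold change lay between -0.38 and -0.67 over all alternatives. GPC5, a second glypican, had 5 and 1 counts in ASO-L1, against 14 and 18 counts in sO-L1 and 2 and 13 counts in ASO-Ctr. Its ASO-L1 and ASO-Ctr levels overlapped. GPC5 reached the count minimum in both libraries only in sO-L1, the group it was called lower against, so no p is given. Its fitted log2 fold change against sO-L1 ranged from -4.05 to -1.69 over the alternatives. The call against sO-L1 was lost without the block and without ASO-L1 replicate 2 or either sO-L1 library.

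CNTNAP2, a neurexin-like protein that clusters potassium channels on axons, went the other way. It had 183 and 172 CPM in ASO-L1, against 120 and 115 CPM in sO-L1 and 136 and 120 CPM in ASO-Ctr. Both ASO-L1 libraries lay above all others. Over all tested genes, 22.4% had both ASO-L1 libraries above both of sO-L1, and 20.9% above both of ASO-Ctr. The log2 fold change was 0.60 ± 0.05 against sO-L1 (edgeR, adjusted p = 6.97e-14, or 0.0153 without the block) and 0.50 ± 0.05 against ASO-Ctr (adjusted p = 1.96e-11, or 0.0298). At 2305 kb CNTNAP2 is the longest member after RBFOX1, and it is described at a fragile site. The remaining adhesion members, OPCML, CDH13 and the Reelin adaptor DAB1, were called in neither comparison, with log2 fold changes against sO-L1 of -0.18, -0.05 and 0.10.

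**Figure D2:**
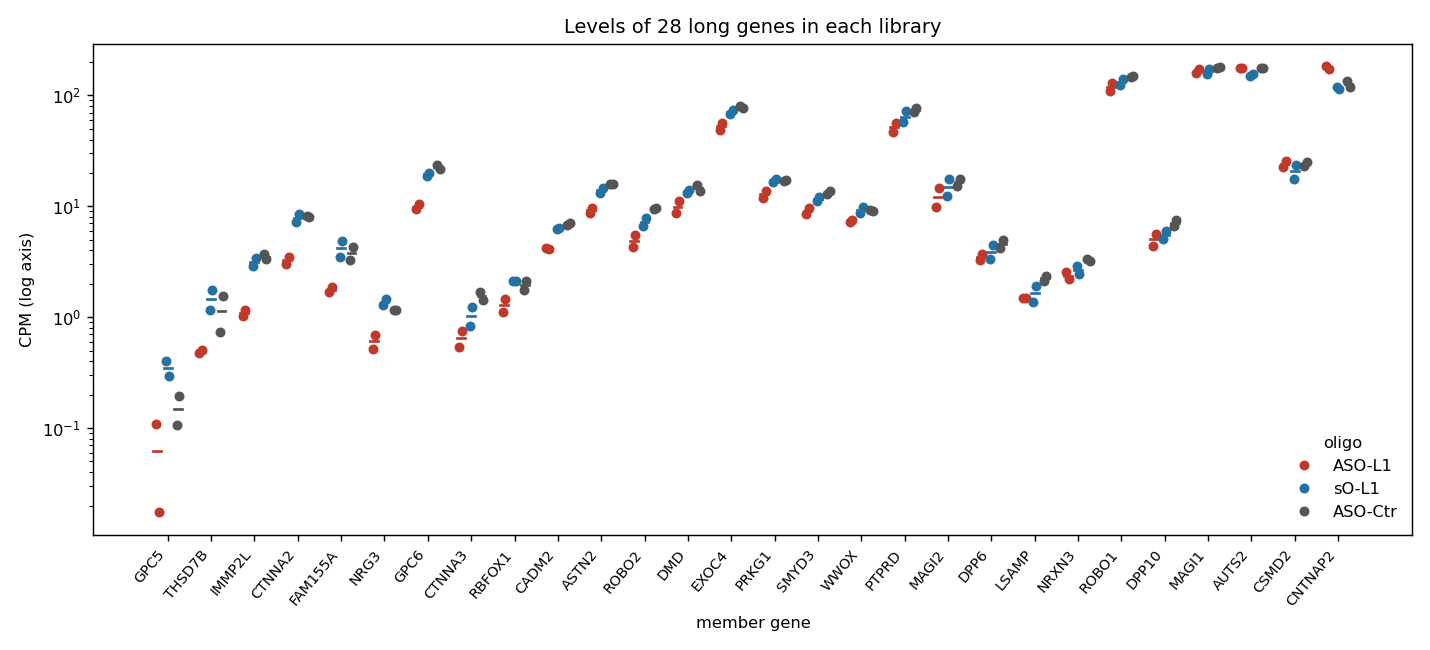
CPM on a log axis for the 28 members called in an ASO-L1 comparison or among the 6 with the most counts, with 1 point per library, a bar at the mean of the 2 libraries, and members ordered by their change in ASO-L1 against sO-L1. CTNNA2 lies at 3.01 and 3.49 CPM in ASO-L1 and above 7 CPM in the other groups, and CNTNAP2 is highest in ASO-L1.

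Of the 9 enzymes, all tested, 4 fell in ASO-L1 against sO-L1 and 3 against ASO-Ctr, and none rose. The shares of all tested genes were 12.7% lower and 10.3% higher against sO-L1, and 11.6% and 9.88% against ASO-Ctr. IMMP2L, a peptidase of the mitochondrial inner membrane, had 1.02 and 1.16 CPM in ASO-L1, against 2.88 and 3.38 CPM in sO-L1 and 3.70 and 3.33 CPM in ASO-Ctr. Its ASO-L1 levels lay below all others, with log2 fold changes of -1.52 ± 0.18 against sO-L1 (edgeR, adjusted p = 6.02e-09, or 0.00838 without the block) and -1.62 ± 0.19 against ASO-Ctr (adjusted p = 2.35e-09, or 0.00693). PRKG1, the cyclic GMP-dependent kinase, had 11.9 and 13.7 CPM in ASO-L1, against 16.7 and 17.7 CPM in sO-L1 and 17.0 and 17.2 CPM in ASO-Ctr. SMYD3, a lysine methyltransferase, had 8.55 and 9.67 CPM in ASO-L1, against 11.1 and 12.2 CPM in sO-L1 and 12.8 and 13.8 CPM in ASO-Ctr. WWOX, an oxidoreductase at a fragile site, had 7.27 and 7.55 CPM in ASO-L1, against 8.65 and 9.82 CPM in sO-L1 and 9.21 and 9.02 CPM in ASO-Ctr. These 3 enzymes had their 2 lowest values in ASO-L1, but none was called without the block. The call of SMYD3 against sO-L1 was also lost without ASO-L1 replicate 1 or either sO-L1 library (log2 fold changes -0.31, -0.34 and -0.37), and that of WWOX without any 1 of the 4 libraries compared (-0.23 to -0.38). Their log2 fold changes against sO-L1 were -0.41 for PRKG1, -0.35 for SMYD3 and -0.32 for WWOX. FHIT, PARK2 (parkin, a ubiquitin ligase), MACROD2, PDE4D and NAALADL2 were called in neither comparison, with log2 fold changes against sO-L1 between -0.56 (FHIT) and -0.09 (NAALADL2). FHIT and PARK2 stayed under 0.5 CPM in every library.

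Of 7 scaffold, polarity and trafficking members, 3 fell in each ASO-L1 comparison and none rose. The shares of all tested genes were 12.7% lower and 10.3% higher against sO-L1, and 11.6% and 9.88% against ASO-Ctr. EXOC4, a subunit of the exocyst that tethers secretory vesicles, had 49.2 and 56.4 CPM in ASO-L1, against 67.6 and 74.0 CPM in sO-L1 and 81.0 and 76.2 CPM in ASO-Ctr. The groups did not overlap, and EXOC4 was called in both comparisons with the block and without it, with log2 fold changes of -0.42 ± 0.06 and -0.54 ± 0.06 (edgeR, adjusted p without the block 0.0498 and 0.0199). DMD, dystrophin, had 8.68 and 11.2 CPM in ASO-L1, against 13.3 and 13.9 CPM in sO-L1 and 15.7 and 13.8 CPM in ASO-Ctr. MAGI2, a membrane-associated scaffold, had 9.78 and 14.5 CPM in ASO-L1, against 12.3 and 17.6 CPM in sO-L1 and 15.2 and 17.6 CPM in ASO-Ctr. DMD separated ASO-L1 from the rest, whereas in MAGI2 replicate 2 was the higher in all groups and ASO-L1 overlapped sO-L1. DMD fell by 0.45 and MAGI2 by 0.29 on the log2 scale against sO-L1, neither called without the block. Without ASO-L1 replicate 1 the log2 fold change of DMD was -0.26 and that of MAGI2 -0.21, neither of them called (edgeR, adjusted p = 0.12 and 0.205). MAGI2 was not called against sO-L1 without either sO-L1 library (0.0621 and 0.278), nor against ASO-Ctr without ASO-Ctr replicate 1 (0.0652). MAGI1, the member with the most counts, had 159 and 173 CPM in ASO-L1, against 157 and 173 CPM in sO-L1 and 177 and 179 CPM in ASO-Ctr. Its log2 fold change of 0.02 ± 0.05 against sO-L1 was within its error. The formin DIAPH2, PARD3B and the synaptic scaffold DLG2 were called in neither comparison.

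Of 7 channel subunits, receptors and growth factors tested, 2 fell against sO-L1 and 4 against ASO-Ctr, and none rose. The shares of all tested genes were 12.7% lower and 10.3% higher against sO-L1, and 11.6% and 9.88% against ASO-Ctr. With 7 genes, 2 lower and none higher against sO-L1 is not far from these shares. FAM155A, a subunit of the sodium leak channel NALCN, had 1.67 and 1.88 CPM in ASO-L1, against 3.52 and 4.87 CPM in sO-L1 and 3.28 and 4.27 CPM in ASO-Ctr. NRG3, a neuregulin that binds ERBB4, had 0.519 and 0.691 CPM in ASO-L1, against 1.30 and 1.46 CPM in sO-L1 and 1.16 and 1.15 CPM in ASO-Ctr. Both genes had their 2 lowest values in ASO-L1. FAM155A had log2 fold changes of -1.24 ± 0.15 and -1.07 ± 0.16 (edgeR, adjusted p = 1.56e-08 and 1.28e-06, or 0.0236 and 0.0377 without the block). NRG3 had log2 fold changes of -1.17 ± 0.26 and -0.86 ± 0.28 (adjusted p = 5.16e-04 and 0.0195, or 0.0549 and 0.13 without the block), and its call against ASO-Ctr was lost when any 1 of the 4 libraries compared was left out (0.0644 to 0.163). DPP6 and DPP10 are auxiliary subunits of Kv4 potassium channels. DPP6 had 3.25 and 3.68 CPM in ASO-L1, against 3.32 and 4.49 CPM in sO-L1 and 4.18 and 4.96 CPM in ASO-Ctr, and DPP10 had 4.41 and 5.63 CPM in ASO-L1, against 5.08 and 5.97 CPM in sO-L1 and 6.67 and 7.56 CPM in ASO-Ctr. Both overlapped sO-L1 and were called only against ASO-Ctr, with the block, at log2 fold changes of -0.37 and -0.46. The DPP6 call lay at the threshold (edgeR, adjusted p = 0.0497). It held in 2 of 15 alternatives and was lost when any 1 of the 6 libraries was left out, while that of DPP10 held in 13 of 15. KCNIP4, NRG1 and GRID1 were called in neither comparison.

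Among 3 nuclear regulators and 2 large membrane proteins the directions were mixed. RBFOX1, a splicing regulator, had 1.12 and 1.45 CPM in ASO-L1, against 2.11 and 2.10 CPM in sO-L1 and 1.75 and 2.11 CPM in ASO-Ctr. THSD7B, a membrane protein with thrombospondin repeats, had 0.476 and 0.501 CPM in ASO-L1, against 1.15 and 1.75 CPM in sO-L1 and 0.741 and 1.55 CPM in ASO-Ctr. Both fell in each ASO-L1 comparison with the block and in neither without it, RBFOX1 by 0.68 and 0.57 and THSD7B by 1.58 and 1.29 on the log2 scale. Against ASO-Ctr the RBFOX1 call held in 3 of 15 alternatives and was lost when any 1 of the 6 libraries was left out. Against sO-L1 it was lost without ASO-L1 replicate 1 (log2 fold change -0.56) and without sO-L1 replicate 1 (-0.54). THSD7B was not called against ASO-Ctr without ASO-L1 replicate 2 (-0.86) or ASO-Ctr replicate 2 (-0.82). AUTS2, which acts with Polycomb complexes, had 175 and 178 CPM in ASO-L1, against 150 and 156 CPM in sO-L1 and 175 and 176 CPM in ASO-Ctr. CSMD2 had 22.7 and 25.6 CPM in ASO-L1, against 17.6 and 23.7 CPM in sO-L1 and 23.0 and 25.3 CPM in ASO-Ctr. These 2 genes were called higher against sO-L1 (log2 fold changes 0.21 and 0.23, with the block only), while against ASO-Ctr the values were 0.03 and 0.04 and were not called. The CSMD2 call was also lost without ASO-L1 replicate 1 (0.18) and without sO-L1 replicate 1 (0.12). FOXP1 was called in neither comparison, with a log2 fold change of 0.01 against sO-L1.

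Between the sense oligo and the control oligo few of these genes passed the test. Of 43 tested members 1 was lower in sO-L1 than in ASO-Ctr, AUTS2 with a log2 fold change of -0.18 (edgeR, adjusted p = 0.0338), and 0 were higher, with 1.06% and 0.658% of all genes called. Without the block 0 were called in either direction, with 0.0% of all genes. At an unadjusted p under 0.05 the counts were 9 with the block and 2 without it. The share of all tested genes at this unadjusted threshold was not counted, so these counts have no background beside them. The members' median was -0.13, with 29 of 43 values negative. The call of AUTS2 was lost when any 1 of the 4 sO-L1 and ASO-Ctr libraries was left out.

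Fragile-site members held calls in both directions in each ASO-L1 comparison, and the other members only against sO-L1. Of 18 tested, 7 fell and 2 rose in ASO-L1 against sO-L1, with a median log2 fold change of -0.34, against 12 lower and 1 higher of 25 others with a median of -0.29. Against ASO-Ctr 8 fell and 1 rose of the fragile-site members, and 14 fell and 0 rose of the others, with medians of -0.39 and -0.46. The difference between these groups was not tested. Without the block 4 fragile-site members were lower and 1 higher in each of these comparisons. Of all tested genes, 0.924% were lower and 0.914% higher without the block against sO-L1, and 1.05% and 0.903% against ASO-Ctr. Of 16 tested genes of a second list of fragile-site genes that are no members, 7 fell and 1 rose against sO-L1, and 9 fell and 1 rose against ASO-Ctr, with medians of -0.35 and -0.36. Over all tested genes the shares with the block were 12.7% lower and 10.3% higher, and 11.6% and 9.88%. Without the block 1 gene of this list was lower against sO-L1 and 2 against ASO-Ctr, and 0 were higher. PTPRG, a receptor tyrosine phosphatase, had 132 and 155 CPM in ASO-L1, against 173 and 208 CPM in sO-L1 and 214 and 231 CPM in ASO-Ctr, with both ASO-L1 libraries below all others. Without the block PTPRG was called against ASO-Ctr (edgeR, adjusted p = 0.0216) and not against sO-L1 (0.0811). RORA, a nuclear receptor, was the one that rose, at 5.45 and 7.08 CPM in ASO-L1, against 4.21 and 4.64 CPM in sO-L1 and 3.28 and 6.13 CPM in ASO-Ctr. Its ASO-L1 and ASO-Ctr libraries overlapped, and without the block RORA was called in neither comparison (0.328 and 0.5).

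Calls toward lower levels were more frequent in longer genes across the whole table. A span was available for 16189 of 19156 tested genes (84.5%). In ASO-L1 against sO-L1, 8.2% of 3877 genes under 10 kb were lower, 13.6% of those from 10 to 50 kb, 15.6% from 50 to 100 kb, 19% from 100 to 250 kb, 32.9% from 250 to 500 kb, and 36.4% of 283 genes of at least 500 kb. The share called higher was 10.8% in the shortest class and 4.24% in the longest. Against ASO-Ctr the share called lower went up in the same order, to 42.2% and 43.8% in the 2 longest classes, with 1.77% of the longest higher. With the 43 members left out, 35% of the 240 other genes of at least 500 kb were lower and 3.75% higher against sO-L1, and 42.5% and 1.67% against ASO-Ctr. The shares in sO-L1 against ASO-Ctr were 0.438% lower under 10 kb and 6.36% at 500 kb and above, where 18 genes were lower and 0 higher.

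These counts depended on the fit and on single libraries. Without the replicate block the genes of at least 500 kb called lower numbered 18 of 283 against sO-L1 and 27 against ASO-Ctr, beside 103 and 124 with it. Calls dropped over all tested genes as well, where 0.924% and 1.05% were lower without the block, beside 12.7% and 11.6% with it. Without sO-L1 replicate 2, 60 were lower and 6 higher against sO-L1, beside 103 and 12 with all libraries, and without ASO-L1 replicate 2, 3 were higher against ASO-Ctr, beside 5. The 18 lower in sO-L1 against ASO-Ctr became 1 without sO-L1 replicate 1, 6 without sO-L1 replicate 2 and 5 without ASO-Ctr replicate 1.

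**Figure D3:**
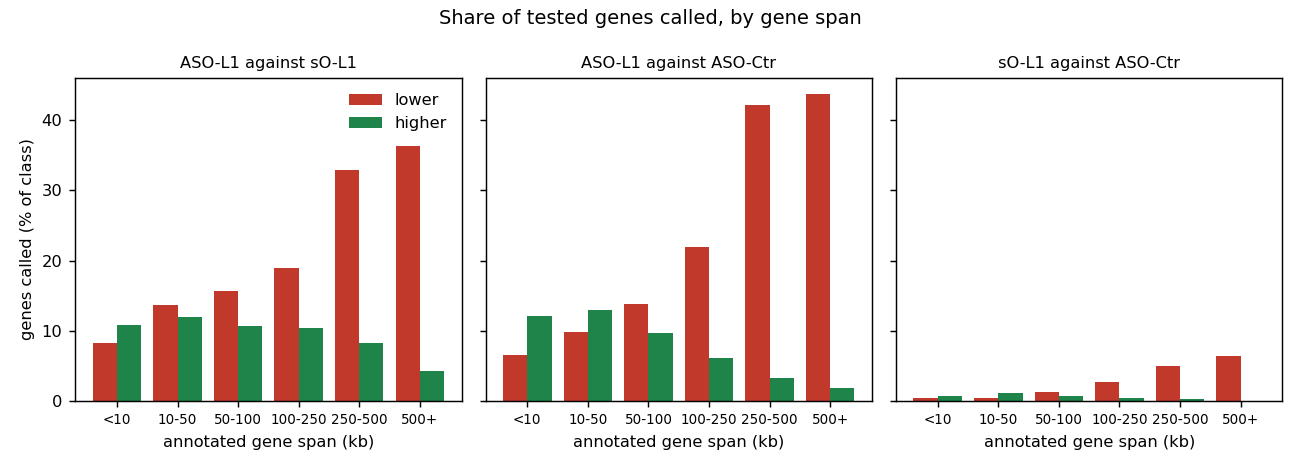
Percent of tested genes called lower and higher in 6 classes of annotated gene span (kb), with a panel for each of the 3 comparisons and ASO-L1 against sO-L1 on the left. The lower share reaches 36.4%, 43.8% and 6.36% in the class of at least 500 kb.

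The merged exons of a gene, summed in length, had a median of 10.3 kb in the tested members and 4.74 kb over the tested genes. The longest class was therefore also counted within narrower ranges of this summed length and of level. These ranges were chosen after the data were seen. At an average log2 CPM of 2 to 6, 59.8% of 122 genes of at least 500 kb were lower against sO-L1 and 69.7% against ASO-Ctr. In that range of level the shares were 41.4% and 53.8% from 250 to 500 kb, and 13.6% and 11% under 10 kb. With merged exons of 5 to 15 kb, 37.1% and 45.9% of 194 genes of at least 500 kb were lower. The shares there were 31.6% and 40.1% from 250 to 500 kb, and 8% and 7.67% under 10 kb. Within the 43 members themselves span had little relation to the change: Spearman's rank correlation of span with the log2 fold change was -0.10 against sO-L1 and -0.02 against ASO-Ctr, as a description over genes of the same libraries. The rank correlation was 0.49 in both comparisons for summed merged exon length and 0.34 and 0.41 for the average level. The more negative values thus tended to be in members with less exon sequence in total and lower levels.

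**Figure D4:**
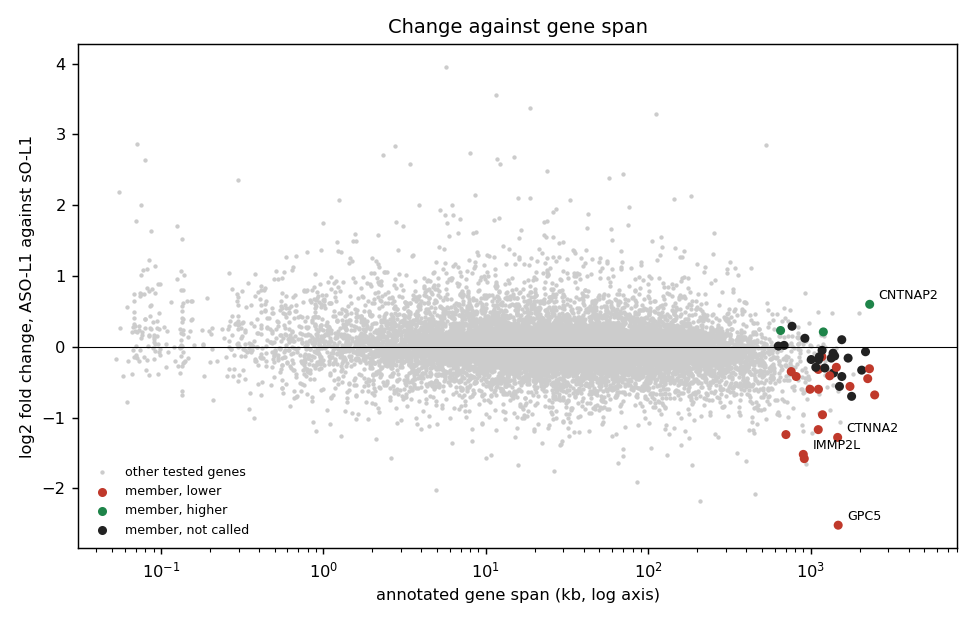
Log2 fold change in ASO-L1 against sO-L1 for all tested genes with a span, against the span in kb on a log axis, with the 43 tested members coloured by call. The members lie at the right edge, mostly below 0, with CNTNAP2 at 0.60 and GPC5 at -2.52.

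By smallest p among genes of at least 500 kb that are no members, FAT3, a giant cadherin, had a log2 fold change of -0.58 in ASO-L1 against sO-L1, the synaptic adhesion protein NLGN1 had -0.96, the kinase PRKD1 had -0.94 and the matrix proteoglycan SPOCK1 had -0.75. Without the block FAT3 and SPOCK1 were not called against sO-L1 (edgeR, adjusted p = 0.14 and 0.0887), while NLGN1 and PRKD1 were (0.0154 and 0.0114). CREB5, a transcription factor of 526.6 kb, rose. It was 1 of 9 higher against sO-L1 (3.75%) among the 240 non-members of at least 500 kb. CREB5 had 2.42 and 2.06 CPM in ASO-L1, against 0.231 and 0.344 CPM in sO-L1 and 0.794 and 0.446 CPM in ASO-Ctr. Its log2 fold change was 2.86 against sO-L1 (edgeR, adjusted p = 4.24e-11, or 0.0065 without the block).

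Of 10 tested genes that lie inside 9 of the members, 0 were lower in either ASO-L1 comparison, beside 12.7% and 11.6% of all genes. FLRT3 within MACROD2 was the 1 higher in both, beside 10.3% and 9.88% of all genes. For 10 genes both counts are close to these shares. Their median log2 fold changes were -0.02 and 0.08. FLRT3 had 5.62 and 4.28 CPM in ASO-L1, against 4.27 and 2.1 CPM in sO-L1 and 5.61 and 2.47 CPM in ASO-Ctr, overlapping ASO-Ctr, and without the block it was called in neither comparison (edgeR, adjusted p = 0.448 and 0.652). LSAMP-AS1 within LSAMP had log2 fold changes of -1.57 and -1.18, with 4 and 2 counts in ASO-L1, FOXP1-AS1 within FOXP1 had -0.31 and -0.65, and LRRTM3 within CTNNA3 had -0.24 and -0.32, none of them called. LRRN3, a leucine-rich repeat protein encoded on the opposite strand within IMMP2L, had 5.91 and 4.4 CPM in ASO-L1, against 6.72 and 3.84 CPM in sO-L1 and 6.19 and 3.66 CPM in ASO-Ctr. In LRRN3 the replicate numbers separated the libraries and the oligos did not. TRIM32, a ubiquitin ligase within ASTN2, and CSTF2T, a polyadenylation factor gene within PRKG1, had log2 fold changes against sO-L1 of -0.04 ± 0.06 and -0.04 ± 0.05, while their hosts fell by 0.60 and 0.41. The counting's strand setting is not stated, so reads of hosts and inner genes may be mixed. The difference between a host and its inner gene was not tested.

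**Figure D5:**
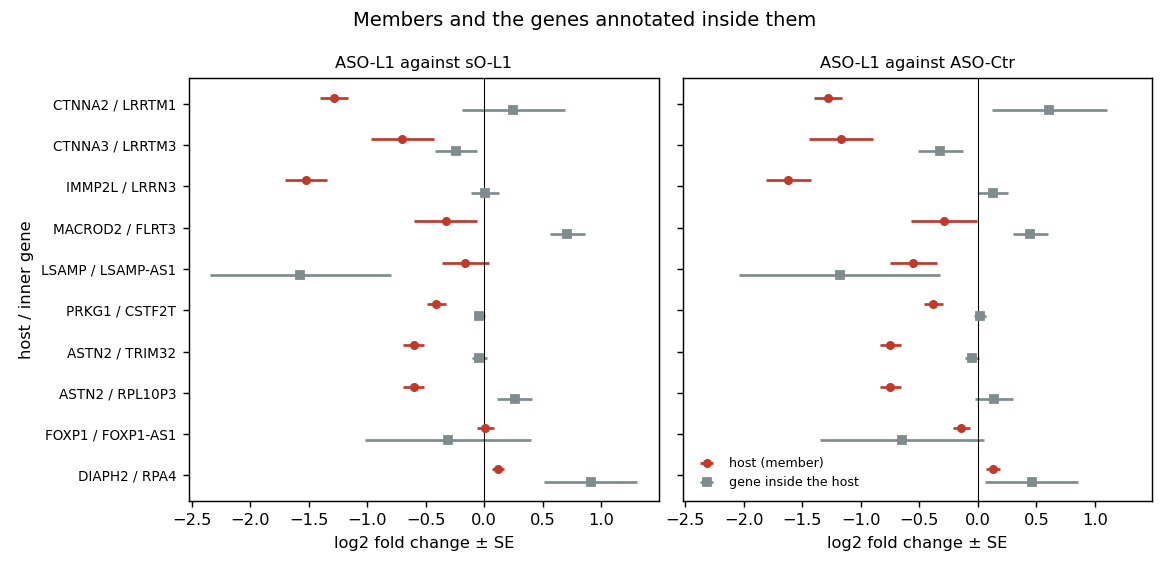
Log2 fold change with its SE for 9 member hosts (circles) and the 10 tested genes annotated inside them (squares) in ASO-L1 against sO-L1 (left) and against ASO-Ctr (right). IMMP2L lies at -1.52 and LRRN3 inside it at 0.01 in the first panel.

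Genes of transcription elongation and topology, which full-length transcription of long genes needs, had more calls higher than lower with the block. Of 33 tested, 2 fell (TOP1 and SNRNP70, each with a log2 fold change of -0.15) and 8 rose in ASO-L1 against sO-L1, and 0 fell and 7 rose against ASO-Ctr. Over all tested genes 12.7% were lower and 10.3% higher against sO-L1, and 11.6% and 9.88% against ASO-Ctr. The list's medians were 0.04 and 0.06, and none was called without the block. Of 20 genes of the replication stress response, 4 fell and 2 rose against sO-L1, and 2 fell and 3 rose against ASO-Ctr. Without the block 0 fell and 1 rose against sO-L1, and 0 were called against ASO-Ctr. Of all tested genes, 0.924% were lower and 0.914% higher without the block against sO-L1, and 1.05% and 0.903% against ASO-Ctr. ATR, the kinase that signals stalled replication, had a log2 fold change of -0.30 against sO-L1 (edgeR, adjusted p without the block 0.346), and POLH, a polymerase that copies past damage, had 0.45 (0.0457).

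The authors' deposited comparison table, which sets ASO-L1 against sO-L1, holds 39 of the members. By the authors' deposited comparison, 17 of them were lower and 3 higher at an adjusted p under 0.05, and 38 had the same call as in the fit given here. ROBO1, lower here with an adjusted p of 0.0391, had 0.0536 in the authors' deposited table.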

How the data were processed

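Per the labels' protocols, poly(A) RNA was prepared with a directional kit. The submitters' processing notes list Trim Galore 0.4.0, TopHat2 2.0.13, featureCounts (Subread 1.5.0) and the build hg19. The deposited table gives unscaled counts by gene symbol, and its name says that the authors removed duplicates. The authors' deposited log2 table holds normalized, batch-corrected log2 values and served only to settle the sign of the authors' deposited log2 fold changes, which come with p-values (correlation 0.996). The authors' table also holds a test statistic and a log-odds score per gene, which were not used. The strand setting is not given in the sources used here.

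The 92 spike-in entries were left out. Genes were filtered with filterByExpr (minimum count 10, minimum total 15), normalised by TMM and tested by edgeR 4.0.16 under R 4.3.3 (quasi-likelihood, robust), with all 6 libraries, group and replicate number in 1 design. The block was used because the labels name a batch-corrected table. With 2 numbers and no label saying what they share, the pairing is not established. Deviations of same-numbered libraries correlated at 0.278, 0.191 and 0.258. P-values were Benjamini-Hochberg adjusted over 19156 genes and called under 0.05. SE is the size of the log2 fold change divided by the root of its F value. CPM are counts scaled by the library total, without TMM. The pipeline was tested on simulated data. Same-numbered libraries shared a shift in that simulation, so it cannot tell whether the block suits these libraries.

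Spans came from GENCODE 29, matched by symbol or older symbol. Its build differs from hg19, so none of its coordinates are given. The members and lists were chosen with earlier results of these data known. Values per library are given for members called in an ASO-L1 comparison and for the 6 with the most counts. Of non-members, those with the smallest p are named, except some that are not reported here. Alternatives were other scalings and filters, DESeq2 1.42.0, limma-voom (limma 3.58.1), no replicate block, only the 4 libraries compared, thinning to the shallowest library, a span of at least 300 kb and each library left out.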

Additional observations from a re-analysis of the deposited data

How the results depend on the processing

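No member's direction reversed under any alternative where it was called. Without the replicate block, members lower numbered 6 against sO-L1 and 8 against ASO-Ctr, members higher 1 against sO-L1, and genes of at least 500 kb 18 lower and 3 higher against sO-L1 and 27 lower and 3 higher against ASO-Ctr. In sO-L1 against ASO-Ctr it left 0 members and 0 genes of at least 500 kb lower. DESeq2 called 12 members lower against sO-L1 and 14 against ASO-Ctr, with no adjusted p for 3 called members in each, 67 genes of at least 500 kb lower and 7 higher against sO-L1, 2 higher against ASO-Ctr, and 8 such genes lower in sO-L1 against ASO-Ctr, where limma-voom called 10. Over all genes, the fit with the block called 2430 lower and 1982 higher against sO-L1, DESeq2 1304 and 1051, and the fit without the block 177 and 175. Thinning gave 3 long genes higher against ASO-Ctr and 2 members lower in sO-L1 against ASO-Ctr, and the 4 libraries alone gave 3 there. A span of at least 300 kb gave 243 lower and 48 higher against sO-L1, 305 and 19 against ASO-Ctr, and 39 and 1 in sO-L1 against ASO-Ctr, because more genes enter. With each library left out in turn, members lower ranged from 13 to 20 against sO-L1, 16 to 19 against ASO-Ctr and 0 to 3 in sO-L1 against ASO-Ctr, and members higher from 2 to 3 and 1 to 1 in the ASO-L1 comparisons. Genes of at least 500 kb lower ranged from 60 to 106, 97 to 115 and 1 to 26, and higher from 6 to 12, 3 to 5 and 0 to 0. The lowest count against sO-L1, 60, came without sO-L1 replicate 2. Where a group kept 1 library, its spread was taken from the other groups. Apart from the span limit and the libraries left out, the cause of these shifts was not tested. Among members under 1 CPM in every library, CDH13, GRID1, PARK2, FHIT and GPC5 had SEs of 0.36, 0.47, 0.54, 0.62 and 0.67 on the log2 scale against sO-L1.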
